A study of Mus musculus with 6 samples.

Results

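The AP-1 genes described here are Fos, Fosb, Fosl1, Fosl2, Jun, Junb, Jund, Atf3, Batf and Batf3. Their 160 accessible regions (peaks), out of 182166 in the data set, are those that overlapped the body of 1 of these 10 genes or lay within 50 kb of it with no other protein-coding gene nearer. ATAC-seq, a measure of open chromatin by the cuts of the Tn5 transposase, was run on bone marrow granulocyte-monocyte progenitors (GMPs) sorted from untreated C57BL/6 mice. GFI1-KD mice (KD/KD) express human GFI1 at 10% to 20%, of a level the labels do not define, and GFI1-KI mice (KI/KI) express human GFI1 in place of the mouse gene, so that both genotypes lack mouse Gfi1 and carry the human gene. Each genotype had 3 libraries, KD1 to KD3 and KI1 to KI3. How many animals each library came from is not given in the sources used here, and the p-values therefore reflect only how far these libraries differ, possibly for technical reasons.

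AP-1 is a family of dimeric transcription factors that pair through a leucine zipper. FOS proteins bind DNA only with a partner, usually a JUN protein, while JUN proteins can also pair with each other. ATF3, BATF and BATF3 pair with the JUN proteins too, and BATF and BATF3 also act with IRF4 or IRF8 on composite sites. Fos, Jun and Atf3 are immediate early genes, switched on within minutes of MAP kinase signalling, and in the myeloid lineage JUN proteins act with PU.1 in monocyte differentiation while JUNB restrains progenitor growth.

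Values are normalized reads per peak, as deposited. The GFI1-KD libraries held 16022763 to 19857646 reads in peaks and the GFI1-KI libraries 19408373 to 27741446. Gene-end peaks, those no more than 1 kb from the start or end of a protein-coding gene, held 37.0% to 37.4% of these reads in GFI1-KD and 38.7% to 39.8% in GFI1-KI, with no overlap. KD1 and KI2 held 0 and 1 reads on chromosome Y, against 499 to 865 in the other 4 libraries. Of the 10 progenitor marker genes listed to check the cell label, 9 had a gene-end peak, with 878 to 927 normalized reads per listed gene in GFI1-KD and 904 to 945 in GFI1-KI, and the lists of other blood cell types had 107 to 279 and 103 to 359. In bulk chromatin a lower value can come from fewer cells with the region open or from a less open region in each cell, and these cannot be told apart.

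At 8 genes a peak overlapped the DNA just before the annotated start, of 9 whose window could be read, and none did at Jund. The 250 bases upstream of the annotated start (RefSeq, GRCm38.p6, 5′ to 3′ along the gene) are shown only for genes with a match to a marked site. These are Jun and Junb, whose start-site peak was lower in GFI1-KD, and Fos, Fosb, Atf3 and Batf, whose start-site peaks did not pass the test. The windows of Fosl2 and Batf3, whose start-site peaks did not pass either, and of Jund held no such match and are not shown. Capitals mark a match, on either strand, to the cyclic AMP response element half-site TGACG, which ATF and CREB factors bind, or to the related AP-1 site TGACNTCA.
Jun, chr4:95052223-95052472, minus strand: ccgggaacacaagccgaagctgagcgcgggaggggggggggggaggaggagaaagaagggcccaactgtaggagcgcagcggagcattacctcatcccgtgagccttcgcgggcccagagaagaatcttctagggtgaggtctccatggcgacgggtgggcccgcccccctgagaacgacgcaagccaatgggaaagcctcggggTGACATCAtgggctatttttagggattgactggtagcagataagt
Junb, chr8:84978749-84978998, minus strand: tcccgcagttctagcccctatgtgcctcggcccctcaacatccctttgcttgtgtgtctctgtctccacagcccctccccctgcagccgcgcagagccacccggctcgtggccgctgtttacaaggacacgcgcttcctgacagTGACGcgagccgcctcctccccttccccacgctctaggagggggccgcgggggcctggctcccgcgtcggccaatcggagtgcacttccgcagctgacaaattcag
Fos, chr12:85473640-85473889, plus strand: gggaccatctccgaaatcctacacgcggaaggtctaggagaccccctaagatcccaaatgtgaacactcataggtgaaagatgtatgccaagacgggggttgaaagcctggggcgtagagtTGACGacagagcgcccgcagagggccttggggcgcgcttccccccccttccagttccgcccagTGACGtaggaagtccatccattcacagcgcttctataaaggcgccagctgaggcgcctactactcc
Fosb, chr7:19310046-19310295, minus strand: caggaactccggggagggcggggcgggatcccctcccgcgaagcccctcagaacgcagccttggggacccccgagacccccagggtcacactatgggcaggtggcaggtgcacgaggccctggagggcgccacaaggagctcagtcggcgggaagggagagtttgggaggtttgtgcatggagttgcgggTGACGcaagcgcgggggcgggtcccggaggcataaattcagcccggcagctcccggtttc
Atf3, chr1:191183334-191183583, minus strand: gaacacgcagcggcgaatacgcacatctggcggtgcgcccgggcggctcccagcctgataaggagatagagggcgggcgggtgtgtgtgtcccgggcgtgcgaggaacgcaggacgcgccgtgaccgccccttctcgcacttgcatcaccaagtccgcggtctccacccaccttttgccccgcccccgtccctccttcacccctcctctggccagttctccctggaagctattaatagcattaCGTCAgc
Batf, chr12:85686470-85686719, plus strand: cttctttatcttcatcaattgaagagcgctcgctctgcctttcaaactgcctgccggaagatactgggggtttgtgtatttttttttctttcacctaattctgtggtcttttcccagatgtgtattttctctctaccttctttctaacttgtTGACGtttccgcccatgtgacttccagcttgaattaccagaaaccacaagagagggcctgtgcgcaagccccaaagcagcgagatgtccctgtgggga
The capitals in Jun spell TGACATCA, 45 to 38 bases before the start, on the strand of the gene. The half-site stood once in Fosb, Junb, Batf and, on the opposite strand 7 to 3 bases before the start, in Atf3, and in 2 places in Fos, 129 to 125 and 66 to 62 bases before it. Over the upstream windows of 27025 genes, 17.9% held the half-site and 7.59% held TGACNTCA, which includes the half-site when its middle base is G. The classical AP-1 site TGANTCA (6.87% of all windows) and the serum response element core (1.4%) were in none of the 9 member windows that could be read. Sites more than 250 bases upstream of the start were not searched, so this does not show that a promoter lacks them. The core AAATCA of the GFI1 site (12.7% of all windows) was found in that of Jund, 59 to 54 bases before the start. A match of letters does not show that a factor binds there. The motifs were chosen after the sequences were seen, so the shares over all windows cannot test for an excess in these genes.

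The called peaks near the AP-1 genes went in 2 directions by position. Peaks away from the gene ends were the ones that rose, and gene-end peaks were the ones that fell. Of the 160 peaks, 154 had a mean of at least 10 normalized reads and were tested, and 18 were higher, 5 lower and 131 not called in GFI1-KD (limma, adjusted p under 0.05). Over all 170733 tested peaks 10.5% were called, 4.99% higher and 5.48% lower, beside 11.7% higher and 3.25% lower among the AP-1 peaks. All 18 that rose were among the 123 peaks away from gene ends (14.6%, against 5.61% of all such peaks, of which 10.8% were called), where none fell (5.17% of all such peaks). All 5 that fell were among the 31 gene-end peaks (16.1%, against 7.11% of all gene-end peaks, of which 8.84% were called), where none rose (1.73% of all gene-end peaks).

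The 5 falls at gene ends did not extend to the size of the gene-end peaks as a class. The median log2 fold change, on log2(normalized reads + 1), was 0.19 for the AP-1 peaks away from gene ends (-0.04 over all such peaks) and 0.00 for their gene-end peaks (-0.10 over all gene-end peaks). Of the peaks away from gene ends 93 had a positive and 30 a negative fold change, and of the gene-end peaks 15 and 16. Of the 18 that rose, 14 lay more than 10 kb outside the gene body, among 84 tested there (16.7%, against 5.95% of all peaks at that distance), and 3 lay closer, of 26 (11.5%, against 5.04%). Inside the genes, away from their ends, 1 of 13 rose (7.69%, against 5.42%), and there the median log2 fold change was negative, at -0.16 (-0.04 over all such peaks), against 0.20 up to 10 kb outside and 0.21 beyond. In 19 of the 23 called peaks the 3 GFI1-KD values lay all on 1 side of the 3 GFI1-KI values. A call on a small p favours such separation, and its share over all called peaks was not counted. Called or not, all GFI1-KD values lay above all GFI1-KI values in 27 of the 123 peaks away from gene ends (12.5% over all such peaks) and in 1 of the 31 gene-end peaks (5.62%), which is 11.4% over all tested peaks. They lay below in 8 of the 123 (16.0%) and in 3 of the 31 (24.7%), which is 17.4% over all tested peaks. Another scaling of the libraries changed the split, with 24 higher and 2 lower under median-of-ratios scaling, 24 and 4 with equal totals and 37 and 0 with equal totals of gene-end reads, and DESeq2 called 20 and 0. Over all called peaks the share that was higher moved as well, from 47.7% to 59.7%, 58.6%, 74.8% and 66.75% in the same order. No AP-1 peak away from gene ends was called lower under any of the 17 alternatives tried on the peaks, while 1 to 3 gene-end peaks were called higher in 5 of them. The alternatives reuse the same 6 libraries, and the share of all peaks away from gene ends called lower under them was not counted.

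**Figure D1:**
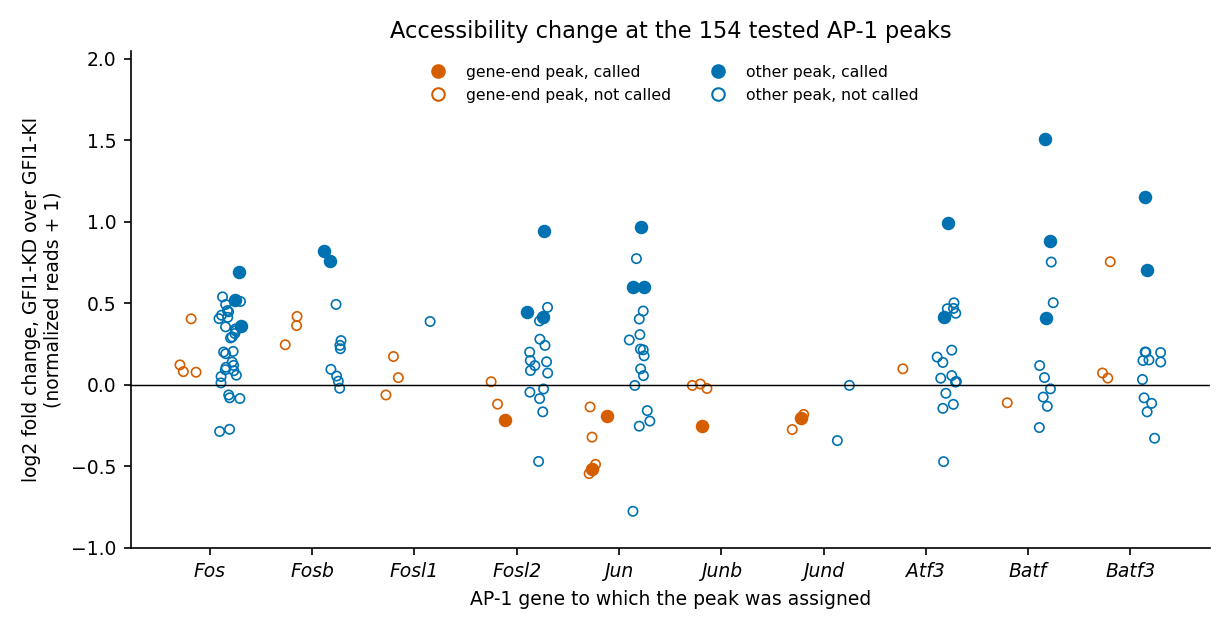
Log2 fold change of each of the 154 tested peaks, GFI1-KD over GFI1-KI, by the gene it was assigned to, with gene-end peaks in orange and other peaks in blue; filled points were called. All 5 filled orange points lie below 0 and all 18 filled blue points above it.

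Fos, which encodes the founding FOS protein, lies on chromosome 12 from 85473890 to 85477274 (mm10) and had 37 tested peaks, of which 3 rose and none fell. The peak 1.4 kb upstream of the gene, from 85472023 to 85472468, held 585, 785 and 811 normalized reads in KD1, KD2 and KD3, against 524, 490.0 and 492 in KI1, KI2 and KI3. All GFI1-KD values lay above all GFI1-KI values, with KD1 nearest to them, and the log2 fold change was 0.52 ± 0.10 (SE, limma adjusted p = 0.00192). The peak 8.5 kb downstream, from 85485729 to 85486341, is larger, with 703, 949 and 1064 normalized reads in GFI1-KD and 739, 689 and 656 in GFI1-KI. Here KD1 lay within the GFI1-KI range (log2 fold change 0.36 ± 0.10, limma adjusted p = 0.0278). The third, 13.2 kb downstream, held 116, 87.6 and 109.8 against 72.1, 71.0 and 50.6, without overlap (0.69 ± 0.18, limma adjusted p = 0.0137).

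The start of Fos itself did not pass the test. The peak over the start and the first part of the gene held 634, 781 and 866 normalized reads in GFI1-KD and 778, 667 and 699 in GFI1-KI (log2 fold change 0.08 ± 0.09, limma adjusted p = 0.635), and its neighbour before the start 204, 246 and 238 against 212, 214 and 205 (0.12 ± 0.11). Within the gene a small peak held 63.1, 118 and 109 against 77.7, 105 and 84.6, and the peak 0.6 kb past the gene's end 66.3, 176 and 128 against 67.6, 92.0 and 103. In each of these 4 peaks KD1 had the lowest of the 3 GFI1-KD values. Of the Fos peaks away from its ends the one with the most reads, 18.1 kb upstream, held 1473, 1716 and 1920.4 in GFI1-KD and 1585, 1463 and 1564 in GFI1-KI, with overlap (0.14 ± 0.07, limma adjusted p = 0.226). Without KD1 this peak and the one past the gene's end were called higher (limma adjusted p = 0.0125 and 0.00745). The call at 8.5 kb was lost without KD2, KD3, KI2 or KI3 (limma adjusted p = 0.106, 0.201, 0.091 and 0.125), under robust variance estimation (0.0797) and in DESeq2 (0.114), and that at 13.2 kb without KD3 (0.0644) or KI3 (0.11).

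Fosb, whose protein is the closest relative of FOS, lies on chromosome 7 from 19302696 to 19310118 and had 2 of 13 tested peaks higher. The peak 11.3 kb upstream, from 19321461 to 19321806, held 425, 441 and 374 normalized reads in GFI1-KD and 296, 206 and 205 in GFI1-KI. This was a clear separation (log2 fold change 0.82 ± 0.12, limma adjusted p = 0.000268), with KI1 the highest of the GFI1-KI libraries. The peak 16.3 kb upstream held 85.6, 149 and 134 against 59.7, 74.5 and 78.5 (0.76 ± 0.19, limma adjusted p = 0.0115), and its call was lost without KD2 (0.0847) or KD3 (0.0697). Between these and the gene, 6.1 kb upstream, lay the peak with the most reads away from the ends, with 1142, 1182 and 1215 in GFI1-KD and 1175.5, 1084 and 1056 in GFI1-KI, which did not pass the test (0.10 ± 0.06). The 3 gene-end peaks, all at the start of Fosb, had log2 fold changes of 0.25 to 0.42 and none passed the test (limma adjusted p = 0.19 to 0.315). The peak over the start itself held 80.2, 162 and 124 against 113, 78.9 and 84.6, the neighbour before the start 258, 327 and 290.5 against 280.4, 233 and 224, and the neighbour inside the gene 56.7, 165 and 112 against 98.0, 64.0 and 69.5. As at Fos, KD1 was the lowest GFI1-KD library in each, and without it the peak over the start and the neighbour inside the gene were called higher (limma adjusted p = 0.0229 and 0.00771).

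Fosl2, which encodes the FOS-related protein FRA2, lies on chromosome 5 from 32136472 to 32157840 and had peaks of both directions. The broad peak just before the gene, from 32134914 to 32136120, held 1913, 1579.7 and 1683 normalized reads in GFI1-KD and 1856, 2055 and 2088 in GFI1-KI. KD1 overlapped the GFI1-KI range, and the change was -0.22 ± 0.06 on the log2 scale (limma adjusted p = 0.0341). Away from the ends 3 peaks rose. The strongest, 34.2 kb downstream, from 32192056 to 32192468, held 282, 194 and 228 against 139.6, 109.6 and 114 (log2 fold change 0.94 ± 0.14, limma adjusted p = 0.000293). Its neighbour 36.5 kb downstream held 187, 178 and 171 against 151, 121 and 122 (0.45 ± 0.13, limma adjusted p = 0.032), and a peak inside the gene, 2.1 kb after the start, 396, 297 and 267 against 249.96, 232 and 227 (0.42 ± 0.12, limma adjusted p = 0.0338). In all 3 the genotypes did not overlap. The peak over the start of Fosl2 held 163, 159 and 172 against 175, 163 and 150.3, that inside the gene's first 1 kb 159, 122 and 126 against 157, 152 and 133, and the peak with the most reads among the others, 13.5 kb upstream, 702, 520 and 574 against 584, 528 and 498, and none passed the test.

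Robustness differed between these calls. The Fosl2 peak before the gene was lost without KD2, KD3, KI2 or KI3 (limma adjusted p = 0.116, 0.128, 0.162 and 0.196), under median-of-ratios scaling (0.0934), with equal totals of gene-end reads (0.245), in edgeR (0.0979) and in DESeq2 (0.231). The peak 36.5 kb downstream was lost without any 1 library other than KI1 (0.0676 to 0.163) and the one inside the gene without KD1, KD2, KI2 or KI3 (0.178, 0.0522, 0.119 and 0.132). Fosl1, which encodes FRA1, had 4 peaks on chromosome 19, all tested and none called. The gene-end peak with the most reads held 241, 189 and 224 normalized reads in GFI1-KD and 209, 199 and 169.9 in GFI1-KI, and the 2 others had log2 fold changes of -0.06 ± 0.22 and 0.04 ± 0.19. The peak 2.8 kb from the gene, with the smallest p, held 260.0, 193 and 229.5 against 209, 154 and 158 (0.39 ± 0.14, limma adjusted p = 0.0744). It was called higher in 8 of 17 alternatives, with limma adjusted p = 0.031 under median-of-ratios scaling, 0.0265 with equal totals, 0.0103 with equal totals of gene-end reads, 0.0362 with the replicate block, 0.0432 without KD2 and 0.0118 without KI1, and with an adjusted p of 0.0216 in edgeR and 0.0484 in DESeq2.

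Jun, which encodes the main partner of FOS, lies on chromosome 4 from 95049036 to 95052222, on the minus strand. Of its 24 tested peaks 3 rose, all of them upstream, and 2 fell, 1 at each gene end, while 19 were not called. The peak over the start shown above, from 95051632 to 95052886, is among the most accessible regions of the data set: per kb it held 1905 normalized reads in GFI1-KD and 2174 in GFI1-KI, at or above 99.8% and 99.9% of all tested peaks. Its values were 2573, 2279.5 and 2313 normalized reads in GFI1-KD and 2718, 2755 and 2707 in GFI1-KI. The genotypes did not overlap, but the difference was small, with a log2 fold change of -0.19 ± 0.05 (limma adjusted p = 0.015). A peak inside the gene near its 3′ end, from 95049204 to 95049502, held 260.0, 239 and 193 against 221, 402 and 399, so that KI1 lay among the GFI1-KD values (-0.52 ± 0.17, limma adjusted p = 0.0484). The other pair at the 3′ end had fold changes of like size and did not pass the test. They held 149.8, 227 and 157 against 181, 264 and 310.4 (-0.49 ± 0.17, limma adjusted p = 0.0648) and 113, 97.5 and 75.4 against 102, 151 and 169 (-0.54 ± 0.18, 0.0548). The first was called lower with the replicate block (limma adjusted p = 0.0241), without KD2 (0.0232) and without KI1 (0.00336). The second was called lower with a pseudocount of 5 (0.0495), under robust variance (0.0498), without KD1 (0.0218), without KI1 (0.00446) and in edgeR (0.0417). The peak 0.9 kb upstream (-0.14 ± 0.09) and the small one inside the gene near the start (-0.32 ± 0.16) also had negative fold changes and did not pass. The 3 peaks in the middle of the gene, outside the gene-end class, had log2 fold changes of -0.25 ± 0.13, -0.16 ± 0.17 and -0.22 ± 0.13 with overlap, and none passed.

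Upstream of Jun, inside the annotated long non-coding RNA Junos, 3 peaks rose. The peak 23.1 kb upstream, from 95075363 to 95076142, has the most reads of the Jun peaks away from the ends, although per kb those in the middle of the gene hold more, and held 370.2, 297 and 347 normalized reads in GFI1-KD, against 223, 248 and 198 in GFI1-KI. The groups were apart, with a log2 fold change of 0.60 ± 0.11 (limma adjusted p = 0.00198). The peak 31.8 kb upstream held 87.7, 40.7 and 73.2 against 36.0, 35.1 and 26.4 (0.97 ± 0.24, limma adjusted p = 0.0118), and that 42.4 kb upstream 183, 158 and 123 against 99.1, 113 and 90.6 (0.60 ± 0.15, limma adjusted p = 0.0157). At 31.8 kb KD2 was nearest to GFI1-KI, and the call was lost without KD1, KD3 or KI3 (limma adjusted p = 0.06, 0.0686 and 0.0688). The one 42.4 kb upstream lost it without KD1, KD2 or KI3 (0.0712, 0.0595 and 0.0906). The falling start-site peak was not called under median-of-ratios scaling (0.0576), with equal totals of gene-end reads (0.205), in edgeR (0.0891), in DESeq2 (0.204) or without KD3, KI2 or KI3 (0.0882, 0.0931 and 0.0793). The 3′ peak was not called in 10 of 17 alternatives (0.059 to 0.399), among them leaving out KD2 (0.0969), KD3 (0.217), KI2 (0.26) or KI3 (0.251).

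**Figure D2:**
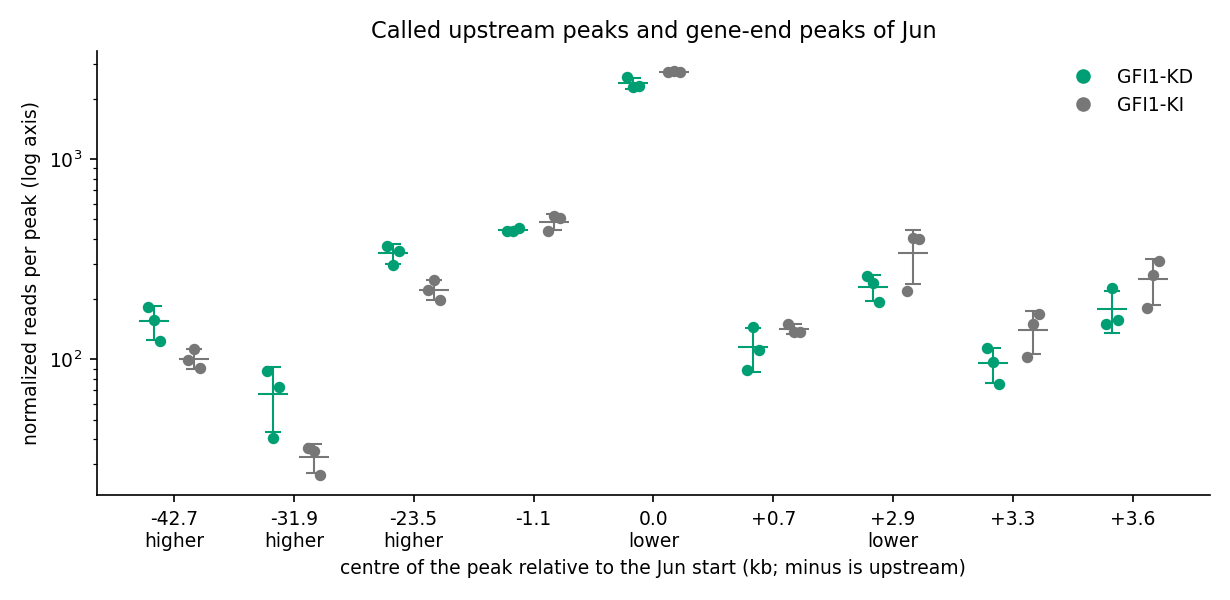
Normalized reads (log axis) in the 3 called upstream peaks and the 6 gene-end peaks of Jun, by distance of the peak's centre from the start site; points are libraries, with the mean and SD (n = 3) for GFI1-KD in green and GFI1-KI in grey. The upstream peaks sit higher in GFI1-KD, and the start-site peak, between 2279.5 and 2573 normalized reads in GFI1-KD, lies below 2707 to 2755 in GFI1-KI.

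Junb and Jund, whose proteins oppose or replace JUN in many dimers, are compact genes on chromosome 8 and had almost all of their peaks at gene ends. Junb, from 84976909 to 84978748, had 4 peaks, all within 1 kb of an end. The peak over its start, from 84978337 to 84978992, held 1004, 955 and 971 normalized reads in GFI1-KD and 1144, 1169 and 1174 in GFI1-KI. It fell by 0.25 ± 0.06 on the log2 scale without overlap (limma adjusted p = 0.0112). The other 3 Junb peaks had fold changes near 0. They held 1522, 1329 and 1325 against 1454, 1413 and 1366 before the start, 600.3, 511 and 561 against 579.9, 527 and 557 inside the gene, and 1108, 958 and 1006 against 1021, 1047 and 1006 past its end, with log2 fold changes of -0.02 ± 0.06, 0.01 ± 0.08 and 0.00 ± 0.07. The first and last of these changed sign under other scalings. In Jund, from 70697739 to 70700616, the broad peak inside the gene from 70698346 to 70699699 held 2579.7, 2613 and 2566 in GFI1-KD and 3001, 2919.6 and 3024 in GFI1-KI. It fell by 0.20 ± 0.04 (limma adjusted p = 0.00385), with every GFI1-KD library below every GFI1-KI library.

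The other Jund peaks did not pass the test. The pair at the gene's 3′ end held 140.2, 194 and 196 against 229.7, 189 and 217 (log2 fold change -0.27 ± 0.14) and 373, 348 and 395 against 354, 464 and 457 (-0.18 ± 0.11), the second of which was called lower without KI1 (limma adjusted p = 0.0392). The one with the most reads away from the ends, 2.1 kb upstream, held 400.2, 397 and 408 against 449, 382 and 381 and its fold change, 0.00 ± 0.09, turned sign with the scaling. The Jund call was lost with equal totals of gene-end reads (limma adjusted p = 0.134), in DESeq2 (0.114) and without KI3 (0.0545). The Junb call was lost with equal totals of gene-end reads (0.0942), in DESeq2 (0.0691) and without KI2 or KI3 (0.0764 and 0.0842). The share of all reads at gene ends was lower in GFI1-KD as given above, and its part in the 5 falling gene-end peaks was not tested beyond the scaling to equal gene-end totals, under which none of them was called.

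Atf3, a stress-induced repressor of the ATF group, lies on chromosome 1 from 191170296 to 191183333 and had 2 of 18 tested peaks higher and none lower. The peak 32.8 kb upstream, from 191216165 to 191216535, held 38.5, 46.9 and 35.5 normalized reads in GFI1-KD and 22.5, 15.8 and 21.1 in GFI1-KI (log2 fold change 0.99 ± 0.24, limma adjusted p = 0.00944). The peak 10.3 kb upstream held 218, 254 and 221 against 197, 179.7 and 144 (0.42 ± 0.13, limma adjusted p = 0.04). Neither overlapped between genotypes. The single gene-end peak, over the start, held 1306, 1140.4 and 1211 against 1196, 1093 and 1124, with overlap (0.10 ± 0.07, limma adjusted p = 0.365). Of the Atf3 peaks away from the ends, the one with the most reads over the 6 libraries, 41.0 kb upstream, held 661, 658 and 619.8 against 735, 699 and 674 and did not pass (-0.12 ± 0.07, limma adjusted p = 0.332), although the genotypes did not overlap. A peak 14.5 kb upstream with more reads per kb, singled out after its values were seen, held 659, 635.6 and 658 against 610.3, 574 and 590.5, also without overlap but in the other direction, and did not pass either (0.14 ± 0.08, limma adjusted p = 0.262). Without KD2 or KI2 the call at 32.8 kb was lost (limma adjusted p = 0.0531 and 0.0631), and that at 10.3 kb without KD2, KD3, KI2 or KI3 (0.15, 0.0813, 0.0978 and 0.259).

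Batf, whose protein lacks an activation domain of its own, lies on chromosome 12 from 85686720 to 85709087 and had 16 peaks, of which 12 were tested and 3 rose. The peak 19.8 kb upstream, from 85666470 to 85666898, had the largest fold change of all the AP-1 peaks. It held 97.4, 49.4 and 57.7 normalized reads in GFI1-KD against 34.9, 21.9 and 14.3 in GFI1-KI, a log2 fold change of 1.51 ± 0.28 (limma adjusted p = 0.00144). Libraries varied within both genotypes, yet the lowest GFI1-KD value stood above the highest GFI1-KI value. The peak 13.1 kb upstream held 47.1, 70.3 and 61.0 against 28.1, 31.6 and 34.7 (0.88 ± 0.21, limma adjusted p = 0.00801; 0.0522 without KD2). The peak 1.6 kb past the gene held 241, 226 and 272 against 224, 171 and 163 (0.41 ± 0.13, limma adjusted p = 0.0438), and its call was lost without any 1 library other than KI1 (0.0527 to 0.225). The start-site peak held 214, 158 and 179.6 against 200.4, 210.4 and 181 (-0.11 ± 0.13), and the peak with the most reads, inside the gene, 863, 818 and 811 against 932, 919 and 879.8 (-0.13 ± 0.07), and neither passed. Of the 4 untested Batf peaks, 3 lay inside the gene and 1 just before its start, with 1.23 to 13.1 normalized reads in any library. The other 2 untested peaks of the 10 genes, 1 inside Atf3 and 1 near Fosb, held 2.14 to 17.7.

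Batf3, needed for the cross-presenting class of dendritic cells, lies on chromosome 1 from 191098414 to 191108943. Of its 16 peaks, all tested, 2 rose, side by side inside the annotated long non-coding RNA Gm46178 downstream of the gene. The peak from 191123831 to 191124076, 14.9 kb downstream, held 101, 129.6 and 119 normalized reads in GFI1-KD, against 58.5, 44.7 and 52.1 in GFI1-KI. It had the smallest p of all the AP-1 peaks, with a log2 fold change of 1.15 ± 0.17 (limma adjusted p = 0.000196) and no overlap. Its neighbour 13.9 kb downstream held 179.8, 275 and 296 against 189, 137 and 129, where KD1 lay below KI1 (0.71 ± 0.16, limma adjusted p = 0.00815), and was lost without KD2, KD3 or KI3 (0.0551, 0.0725 and 0.0536). About 1.4 kb further on, the Batf3 peak with the most reads, 16.5 kb downstream, held 703, 650.4 and 684 against 744, 706 and 754 and did not pass (-0.11 ± 0.07). At the gene's start the small peak 0.3 kb upstream held 26.8, 32.1 and 31.0 against 16.9, 18.4 and 16.6 and missed the threshold (0.76 ± 0.25, limma adjusted p = 0.0529). It was called higher under median-of-ratios scaling (0.0375), with equal totals (0.0383), with equal totals of gene-end reads (0.0227) and in edgeR (adjusted p = 0.0355). The others there held 79.2, 80.2 and 73.2 against 94.6, 59.6 and 75.5 and 125, 127 and 106 against 136, 109.6 and 97.4, with fold changes near 0.

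**Figure D3:**
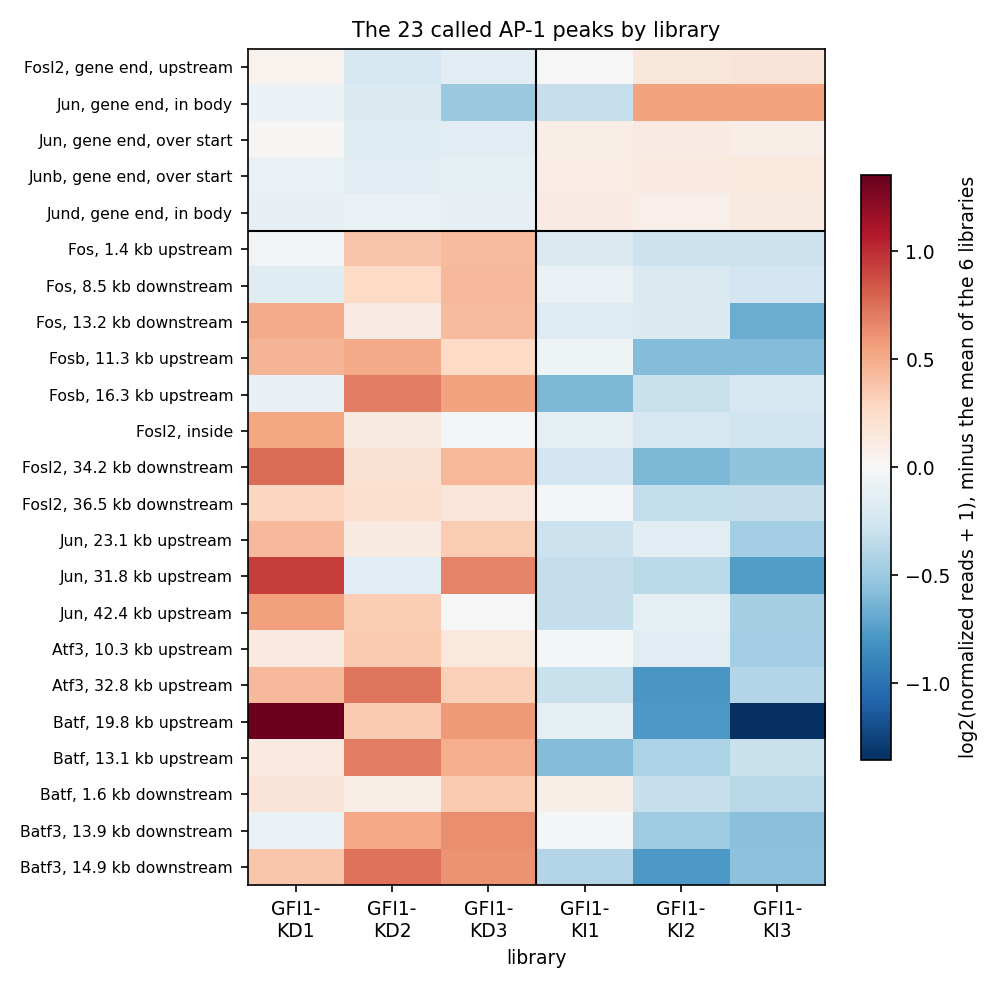
Accessibility of the 23 called peaks in each library, GFI1-KD left of GFI1-KI, as log2(normalized reads + 1) minus the mean of the 6 libraries for that peak, with gene-end peaks above the line and other peaks below it. The largest range is that of the Batf peak 19.8 kb upstream.

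A single peak at each of Fos, Fosb, Fosl2, Jun, Batf and Batf3 kept its call in every alternative in which it was tested. These are the peaks 1.4 kb upstream of Fos, 11.3 kb upstream of Fosb, 34.2 kb downstream of Fosl2, 23.1 kb upstream of Jun, 19.8 kb upstream of Batf and 14.9 kb downstream of Batf3. The other 17 called peaks lost the call in at least 1 alternative. A window of 10 kb, which changes the gene a peak is assigned to and not its test, is not counted here. Of the peaks that kept their call, only that of Fos lies within this window, and 4 of the 18 risen AP-1 peaks do.

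The genes stand in 2 neighbour pairs, which allowed the stretch between them to be read. Fos and Batf are 209 kb apart on chromosome 12, with Jdp2, the gene of a repressor that pairs with JUN, between them. From 50 kb before Fos to 50 kb after Batf there were 90 tested peaks, 8 higher (8.89%) and 3 lower (3.33%), beside 4.99% and 5.48% over all tested peaks. All 3 that fell were among the 30 peaks of Jdp2, of which 1 rose, while Fos had 3 of 37 higher and Batf 3 of 12. The remaining rise, from 85533570 to 85533949, had no protein-coding gene within 50 kb. It held 118, 101 and 78.7 normalized reads in GFI1-KD and 55.2, 50.8 and 41.5 in GFI1-KI (log2 fold change 0.99 ± 0.18, limma adjusted p = 0.00152). The strongest of the 3 that fell lay 39.0 kb from Jdp2 on the side of Fos, from 85559007 to 85559616. It held 61.0, 39.5 and 43.2 normalized reads in GFI1-KD and 90.1, 134 and 121 in GFI1-KI (log2 fold change -1.25 ± 0.19, limma adjusted p = 0.00029). At the end of Jdp2 nearest to Fos the large peak held 1349, 1225.5 and 1273 against 1482, 1399.8 and 1520.2 (-0.19 ± 0.06, limma adjusted p = 0.0394). Batf3 and Atf3 are 61.4 kb apart on chromosome 1. Between them lay 19 tested peaks, of which the pair described above rose (10.5%) and none fell, beside the same 4.99% and 5.48%. From 50 kb before Batf3 to 50 kb after Atf3, 6 of 55 tested peaks rose (10.9%) and none fell. Batf3 and Atf3 had 2 of these each, and so did Nsl1, a neighbour that is not an AP-1 gene and had 8 tested peaks.

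**Figure D4:**
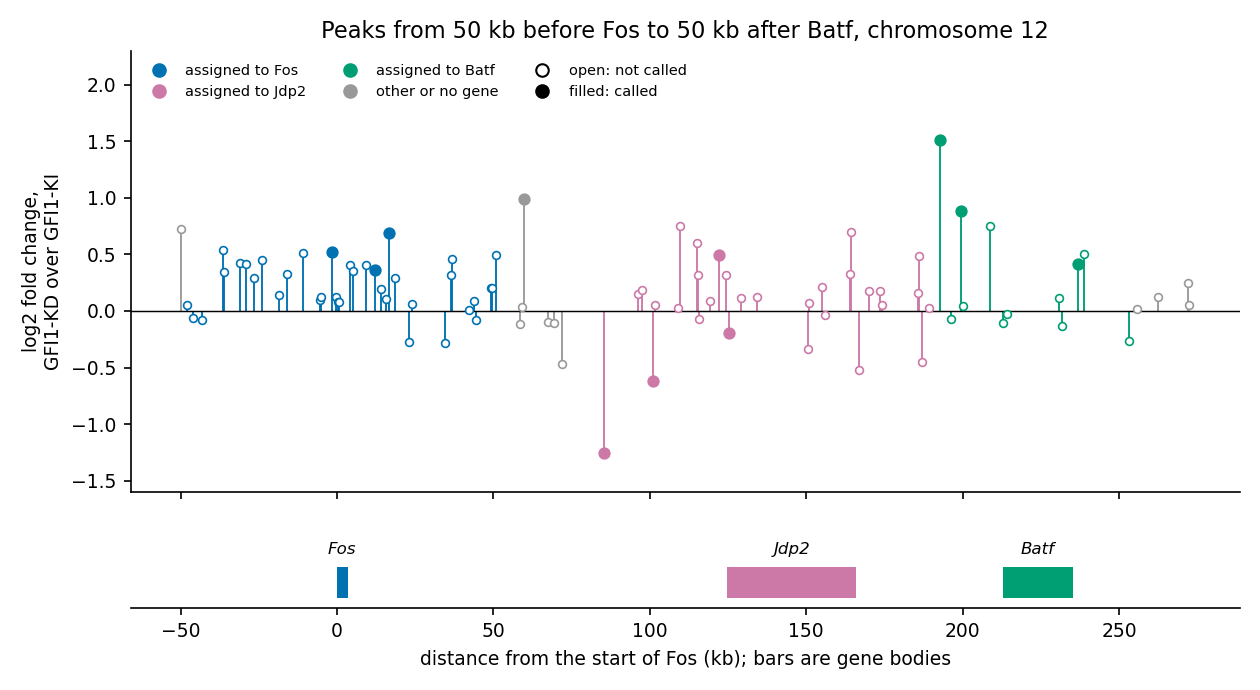
Log2 fold change (GFI1-KD over GFI1-KI) of the 90 tested peaks around Fos, Jdp2 and Batf by distance from the start of Fos in kb, coloured by assigned gene, with gene bodies drawn below; filled points were called. Filled points of Fos and Batf lie above 0, and the 3 filled points below 0 belong to Jdp2.

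To give 1 value per gene, normalized reads were summed over the tested peaks of each gene and fitted over 17335 genes. Of these 16.7% were called, 4.04% higher and 12.6% lower, with a median log2 fold change of -0.08. Among the 10 AP-1 genes Fos and Fosb rose, Jund fell and 7 were not called. Fos summed to 6876, 8152 and 8949 normalized reads in GFI1-KD and 7188, 6669 and 6799 in GFI1-KI (log2 fold change 0.21 ± 0.07, limma adjusted p = 0.0461), so that KD1 lay within the GFI1-KI range. Fosb summed to 4338, 5446 and 5247 against 4568, 4119.5 and 4224 (0.21 ± 0.07, limma adjusted p = 0.0355), with KD1 again among the GFI1-KI values. Jund summed to 3595, 3646 and 3666 against 4150.2, 4092 and 4201, without overlap (-0.19 ± 0.05, limma adjusted p = 0.0186). The log2 fold changes of the others were 0.22 for Fosl1, 0.15 for Batf3, 0.09 for Atf3, 0.07 for Batf, 0.00 for Fosl2, -0.07 for Junb and -0.12 for Jun. None of these sums was called without KD3, KI2 or KI3. The Fos and Fosb calls were also lost without KD2 (limma adjusted p = 0.181 and 0.207), that of Fos under robust variance (0.0502) and that of Fosb with a window of 10 kb (0.138). With that window the Jun sum was called lower (log2 fold change -0.24, limma adjusted p = 0.008). Atf3 and Batf3 were called higher under median-of-ratios scaling (0.0461 and 0.0141) and with equal totals (0.035 and 0.00788), and without KI1 Batf3 (0.0263) and Fosl1 (0.0286) were called higher.

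Whether the gene ends and the rest of a gene moved apart was tested from the ratio of the reads in each class within a library, which no scaling changes. Over 12186 genes with both classes 4.96% were called, 3.51% with a lower gene-end share in GFI1-KD. The median difference in the log2 ratio was -0.07 over these genes and -0.13 over the 9 AP-1 genes that could be fitted. Among these 9 genes 1 was called, Jun. Gene-end peaks held 69.4%, 69.2% and 67.6% of the reads of Jun in GFI1-KD and 74.2%, 74.2% and 76.9% in GFI1-KI, a difference of -0.46 ± 0.10 in the log2 ratio (limma adjusted p = 0.0441). Fosl2 came next with 43.9%, 45.8% and 44.7% against 48.5%, 52.1% and 53.1% (-0.37 ± 0.09, limma adjusted p = 0.0626), then Fosl1 with 60.6%, 59.7% and 60.5% against 62.8%, 66.4% and 65.0% (-0.27 ± 0.09, 0.0996). In these 3 genes the genotypes did not overlap, which was not counted over all genes. The share of all reads in gene-end peaks was also lower in GFI1-KD without overlap, as given above. Without KI1 Fosl2 was called (limma adjusted p = 0.0341). The remaining 6 ran from -0.19 for Batf to 0.12 for Fosb in the log2 ratio, and in each of them the shares of the genotypes overlapped. The Jun call was lost with the replicate block (limma adjusted p = 0.0929), without any 1 library other than KI1 (0.0813 to 0.161), with gene ends drawn at 500 bp (0.0628) and with a window of 10 kb (-0.02, 0.943), which leaves out the 3 upstream peaks that rose.

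**Figure D5:**
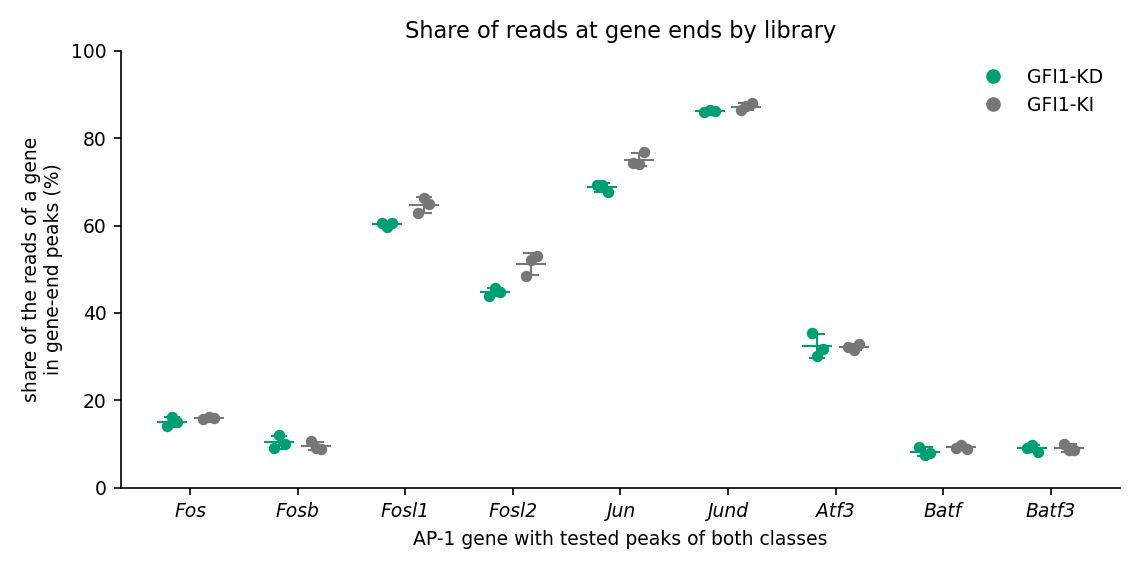
Share of the reads of a gene that lay in its gene-end peaks, in percent, for the 9 genes with tested peaks of both classes; points are libraries, with mean and SD (n = 3), GFI1-KD in green left of GFI1-KI in grey. Jun sits at 67.6% to 69.4% in GFI1-KD and at 74.2% to 76.9% in GFI1-KI.

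Genes that feed or pair with AP-1 were read in the same fit. Of 240 peaks at 14 MAP kinase pathway genes, which carry the signals that switch on Fos and Jun, 22 were higher (9.17%), 9 lower (3.75%) and 209 not called, beside 4.99% higher and 5.48% lower over all tested peaks. Map2k6, an activator of p38, had 4 of 43 higher and 1 lower, with the smallest p of the list (log2 fold change 1.15 ± 0.21, limma adjusted p = 0.00152). Map3k1, upstream of the JUN kinases, had 3 of 27 higher and none lower. Others differed: Map3k5 had 4 of 43 higher and 4 lower, Map3k8 4 of 20 higher and 1 lower, and Mapk8 1 of 10 lower and none higher. Of 126 peaks at 6 serum response factor and partner genes, 8 were higher (6.35%) and 3 lower (2.38%), and the 8.73% called lay below the 10.5% over all tested peaks. Srf had 2 of 8 higher and Elk3 3 of 41, with none lower, whereas Elk4, whose protein binds DNA with SRF, had 2 of 5 lower, among them the smallest p of the list (-1.52 ± 0.26, limma adjusted p = 0.000843).

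Of 160 peaks at 10 other bZIP genes (the ATF, CREB and JDP genes and Batf2), 7 were higher (4.38%) and 13 lower (8.12%), beside 4.99% and 5.48% over all tested peaks. Crem, a cyclic AMP-responsive factor, held 5 of the 13, among 9 peaks with none higher, and Jdp2 had 3 of 30 lower and 1 higher. Creb5, with 3 of 52 higher and 1 lower, and Creb1, with 2 of 17 higher and none lower, had more peaks higher than lower. The Jdp2 peak 39.0 kb from the gene had the smallest p of the list. Of 47 peaks at the BATF partners Irf4 and Irf8, 2 were higher (4.26%, near the 4.99% over all tested peaks), both at Irf8 (smallest p 0.99 ± 0.16, limma adjusted p = 0.000499), and none lower. The median log2 fold changes were 0.06 for the MAP kinase list, 0.08 for the serum response list, 0.05 for the bZIP partners and 0.04 for the IRF partners, against -0.05 over all tested peaks.

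Marker lists of other blood cells were read at gene ends beside these results. The erythroid list summed to 221 to 242 normalized reads per listed gene in GFI1-KD and 271 to 305 in GFI1-KI, with all 3 of its genes that had a gene-end peak lower in every GFI1-KD library than in any GFI1-KI library, and the megakaryocyte list to 222 to 261 against 303 to 359, with 3 of 4 genes lower. The T cell list ran from 237 to 279 against 279 to 283 (1 of 3 lower), the macrophage list from 116 to 129 against 103 to 125 (0 of 4 lower, 1 higher) and the B cell list from 107 to 122 against 111 to 126 (0 of 4 lower or higher). Of the 9 progenitor marker genes with a gene-end peak, 2 were lower in every GFI1-KD library than in any GFI1-KI library and 0 higher. Over all tested gene-end peaks, taken singly and not summed by gene, 24.7% had every GFI1-KD value below every GFI1-KI value and 5.62% above. No gene of the lists of other blood cells with a gene-end peak was at 0, while Hbb-bs and Cd3g had no such peak. The part of other blood cells in the AP-1 results was not tested.

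For likeness, the summed log2 reads of 10227 other genes with at least 5 tested peaks, centred on their own mean over the 6 libraries, were set beside Fos, Jun, Atf3 and Batf. By mean absolute log2 difference, Plat (0.022) and Scgn (0.025) were nearest to Fos, Sh3glb1 (0.015) and Ppara (0.016) to Jun, Unc79 (0.010) and Glipr1 (0.013) to Atf3, and Zcchc24 and Spocd1 (0.0082 each) to Batf.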

How the data were processed

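The deposited values are a signal: read counts per consensus peak that the authors multiplied by 1 factor per library, since 100% of them are whole multiples of a single step (tolerance 0.01 reads). Tools named, without roles, per the submitters' processing notes are BWA, ChIPseeker, DiffBind, HOMER, MACS2, Picard, SAMtools and Trim Galore, with the build mm10. How values were normalized, peaks merged and transposase cuts shifted is not stated in any source used. Columns named WT were taken as GFI1-KI by the series title and the replicate number. Chromosome codes were read alphabetically, which put 16.0% of peaks within 1 kb of a gene end, and 2.62% when read as numbers. RefSeq gave 21887 protein-coding genes (GRCm38.p6).

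Log2(value + 1) was fitted by genotype in limma 3.58.1 under R 4.3.3, with a variance trend, for peaks averaging at least 10, and p-values were adjusted by Benjamini-Hochberg over the 170733 tested peaks. Fold changes understate those of low peaks. Gene sums and gene-end ratios were fitted likewise over all genes. The scripts were tested on simulated data. Of 100 peaks given a 2-fold change there, 54% were recovered, beside 99% of gene sums and 82% of gene-end ratios. A peak that did not pass may therefore still differ. A floor of 3 reads equals 3.21 to 3.70 normalized reads in GFI1-KD and 2.27 to 3.38 in GFI1-KI. Alternatives were other scalings, pseudocounts of 0.5 and 5, other filters, robust variance, a replicate block, a 10 kb window, 500 bp gene ends, count tests on recovered reads (edgeR 4.0.16, DESeq2 1.42.0) and removal of 1 library at a time; equal totals of gene-end reads was added after seeing the data. Named were all called and all gene-end AP-1 peaks, the smallest p of a gene with no call and the other peak of each gene with the most reads (mean of 6 libraries). Members and lists were chosen with earlier results of these data known, and motifs after the sequences were seen.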

Additional observations from a re-analysis of the deposited data

How the results depend on the processing

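Over all tested peaks 17872 were called, 10819 by DESeq2 and 6996 to 22129 with a library left out, the fewest without KI3. Of the AP-1 peaks 18 were higher, 37 with equal totals of gene-end reads, 4 with a window of 10 kb and 9 to 29 with a library left out (9 without KI3, 29 without KI1). The 5 lower became 2 under median-of-ratios scaling, 0 with equal totals of gene-end reads, 0 in DESeq2 and 0 to 8 with a library left out (0 without KI3, 8 without KI1). Genes called on summed reads numbered 3, 5 under median-of-ratios scaling, 5 with equal totals and 0 to 5 with a library left out. On the gene-end share 1 gene was called, 0 with the replicate block, 0 with a window of 10 kb, 0 with gene ends drawn at 500 bp and 0 to 2 with a library left out. The causes were not tested. Of the peaks called in all, 47.7% were higher, 59.7% under median-of-ratios scaling and 74.8% with equal totals of gene-end reads, which moved the median log2 fold change from -0.053 to 0.064. Replicate numbers did not pair the libraries (deviations of same-numbered libraries correlated at -0.024, -0.038 and 0.056); with the replicate block 20 AP-1 peaks were higher and 6 lower.

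None of the 23 called peaks reversed. Uncalled results, named by gene and peak start, turned sign as follows on the log2 scale. Under equal totals of gene-end reads, the sign turned for Batf3 191125481 (0.00605), Batf 85686523 (0.00915), Fosl1 5448174 (0.0538), Fosl2 32137146 (0.000607), Jund 70695313 (0.12), Junb 84976202 (0.12), Junb 84979520 (0.10). Under median-of-ratios scaling, the sign turned for Jund 70695313 (0.0415), Junb 84976202 (0.0412), Junb 84979520 (0.0229), Fosl2 summed reads (0.0449). Under equal totals, the sign turned for Jund 70695313 (0.0406), Junb 84976202 (0.0403), Junb 84979520 (0.0219), Fosl2 summed reads (0.0440). Under edgeR, the sign turned for Jund 70695313 (0.0364), Junb 84976202 (0.0379), Junb 84979520 (0.0215). Under DESeq2, the sign turned for Jund 70695313 (0.0417), Junb 84976202 (0.0435), Junb 84979520 (0.0269). Under a window of 10 kb, the sign turned for Batf3 gene-end to other ratio (0.00863). Under gene ends drawn at 500 bp, the sign turned for Batf3 gene-end to other ratio (0.0613). With a library left out, the ranges that crossed 0 were those of Batf3 191097210 (-0.0352 to 0.20), Batf3 191098268 (-0.12 to 0.20), Fos 85473690 (-0.0182 to 0.21), Fos 85474488 (-0.0926 to 0.36), Fosl1 5448174 (-0.15 to 0.0447), Fosl1 5448681 (-0.15 to 0.26), Fosl2 32136251 (-0.0361 to 0.0711). The same held for Jund 70695313 (-0.0441 to 0.0752), Junb 84976202 (-0.0622 to 0.0431), Junb 84977454 (-0.0497 to 0.0663), Junb 84979520 (-0.0878 to 0.0119), Fosb gene-end to other ratio (-0.00382 to 0.22), Fosl2 summed reads (-0.0880 to 0.0753), Atf3 gene-end to other ratio (-0.0884 to 0.0897), Batf3 gene-end to other ratio (-0.0763 to 0.0656).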
